A study of Homo sapiens with 6 samples.

Results

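MYC, IRF4, MAF, KLF2 and CCND2 are genes that multiple myeloma, a cancer of antibody-secreting plasma cells, often depends on or overexpresses. The 5 genes were chosen by symbol, out of 14884 named genes on the array, without using the measured values, although earlier results of these data, including those of MYC and CCND2, were known when the list was drawn up. Each was read from 1 probe set, the brightest of its symbol, and CCND2 has a further, dimmer probe set. Expression was measured in MM.1S, a human myeloma cell line, on 6 arrays. All cells first had a pulse of 1 h of Cfz, as the proteasome inhibitor carfilzomib is usually abbreviated. On 3 arrays the cells were then cultured for 12 h with 10 µM ATRA (all-trans retinoic acid, which binds and activates retinoic acid receptors), and on 3 with the solvent DMSO. Both groups thus carried the Cfz pulse, only 1 cell line was used, and the labels do not state whether a group's arrays represent separate cultures. P-values therefore measure the spread between these samples, which may be technical.

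MYC is a transcription factor that pairs with MAX and drives growth, ribosome production and metabolism. IRF4 is the interferon regulatory factor on which plasma cells and myeloma cells rely, and in myeloma it and MYC are known to activate each other. KLF2, a zinc finger transcription factor, is known in myeloma to stand in a positive loop with IRF4 that the histone demethylase KDM3A maintains. MAF is a basic leucine zipper factor that some myelomas, MM.1S among them, overexpress through a translocation to the immunoglobulin heavy chain locus. CCND2 encodes cyclin D2, a known target of MAF that activates CDK4 and CDK6 to start the cell cycle by phosphorylating the retinoblastoma protein.

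With ATRA, CCND2 fell and KLF2 rose, and MYC, IRF4 and MAF did not pass an adjusted p of 0.05 (limma, adjusted over all genes). Thus 2 of the 5 genes passed, where 3.8% of all genes tested did, 1.73% higher and 2.07% lower. All 5 were bright, at percentiles of 97.49 (KLF2) to 99.5 (MYC) when genes were ranked by mean log2 level. With the dimmer 50% of genes left out, 1143 of 7442 genes passed, 3 members among them. Shares over all genes are therefore not those of genes as bright as the members. In each of the 5 genes the ATRA and DMSO values were separate, as they were in 24.7% of all genes, with ATRA higher for 3 members (9.86% of all genes) and lower for 2 (14.8% of all genes). In mean, KLF2, MAF and MYC were higher with ATRA and IRF4 and CCND2 lower, while the median log2 change of all genes was -0.01.

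**Figure D1:**
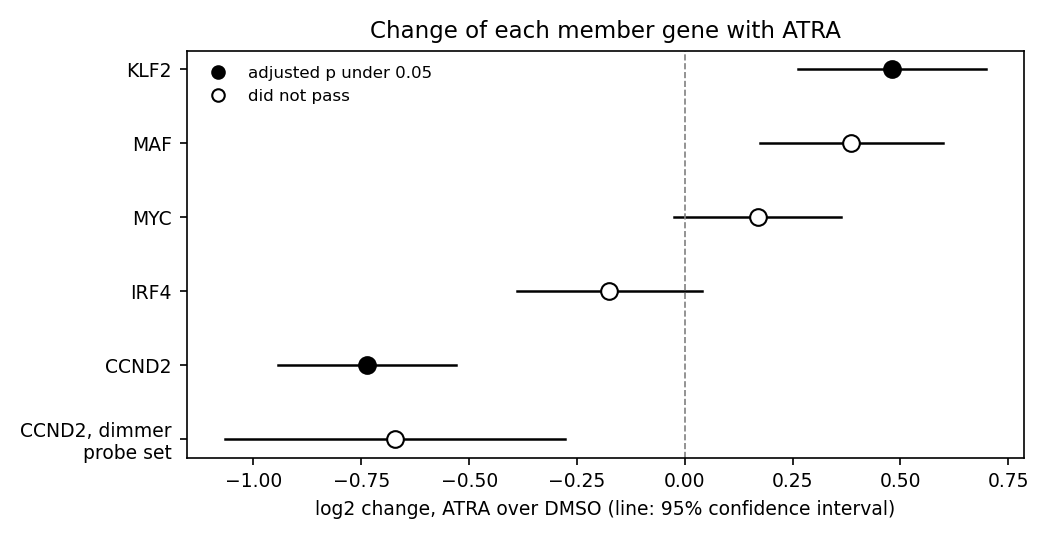
Log2 change of each gene, ATRA over DMSO, with its 95% confidence interval from limma (3 arrays a group). KLF2 (0.48) and CCND2 (-0.74) passed. MAF (0.39), MYC (0.17), IRF4 (-0.17) and the dimmer CCND2 probe set (-0.67), which was tested among all probe sets, did not.

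As a check of the label, 6 of 9 measured plasma cell markers, among them SDC1, CD38, XBP1, MZB1, SLAMF7 and IRF4 itself, lay at log2 intensities of 9.26 to 10.95. The remaining 3, POU2AF1 (4.13), CD27 (3.88) and FCRL5 (2.48), lay at the level of markers of other cell types. Of those, 26 lay between 2.21 and 5.23, and the T cell costimulatory receptor CD28, which myeloma cells are also known to express, lay at 10.85. Of these 27 markers of other cell types, 0 passed in limma's test, although 3 reached an unadjusted p under 0.05 and CD28 alone passed with eBayes with trend and robust. Of the 9 plasma cell markers, SDC1 (0.84), CD38 (1.95) and XBP1 (0.54) rose on the log2 scale and 6 did not pass, of which MZB1 (0.25) and CD27 (0.25) were higher in mean with ATRA and SLAMF7 (-0.31), POU2AF1 (-0.25), FCRL5 (-0.24) and IRF4 (-0.17) lower. Intensities of different probe sets are not comparable as amounts of RNA, and brightness is used here only to tell a signal from background. In RNA of whole cultures, fewer cells that express a gene and less RNA per cell cannot be told apart. Median intensity per array lay between 9.40 and 9.76, and the number of arrays limits the precision.

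CCND2 was the member with the largest change. Its brighter probe set read 783, 781 and 753 on the ATRA arrays, against 1364, 1268 and 1232 on the DMSO arrays. Every ATRA array lay below every DMSO array, with a gap of 449 between the nearest values. The means were 772 ± 16.4 with ATRA and 1288 ± 68.1 with DMSO (SD, n = 3 each), a decrease of 1.67-fold, or -0.74 on the log2 scale (SE 0.088, 95% confidence interval -0.94 to -0.53, adjusted p = 0.00653). The dimmer CCND2 probe set read 112, 129 and 125 with ATRA and 227, 154 and 210 with DMSO. These groups did not overlap either, but DMSO replicate 2 stood only 24.8 above the highest ATRA value, and the DMSO SD was 38.2 around a mean of 197, against 8.97 around 122 with ATRA. The log2 difference was -0.67 (SE 0.17, 95% confidence interval -1.07 to -0.28), close to that of the brighter probe set in size. Both probe sets carry the same accession in the platform annotation, but whether the dimmer one reads the same strand, or an antisense transcript, was not tested, so it is not a sure repeat of the CCND2 measurement. The dimmer probe set did not pass among all probe sets (adjusted p = 0.189), where the brighter one did (adjusted p = 0.0334). Without DMSO replicate 2 the dimmer probe set differed by -0.84, and without DMSO replicate 1 by -0.56. The call on the brighter probe set held in all 6 fits with 1 array left out (adjusted p 0.0278 to 0.0360).

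**Figure D2:**
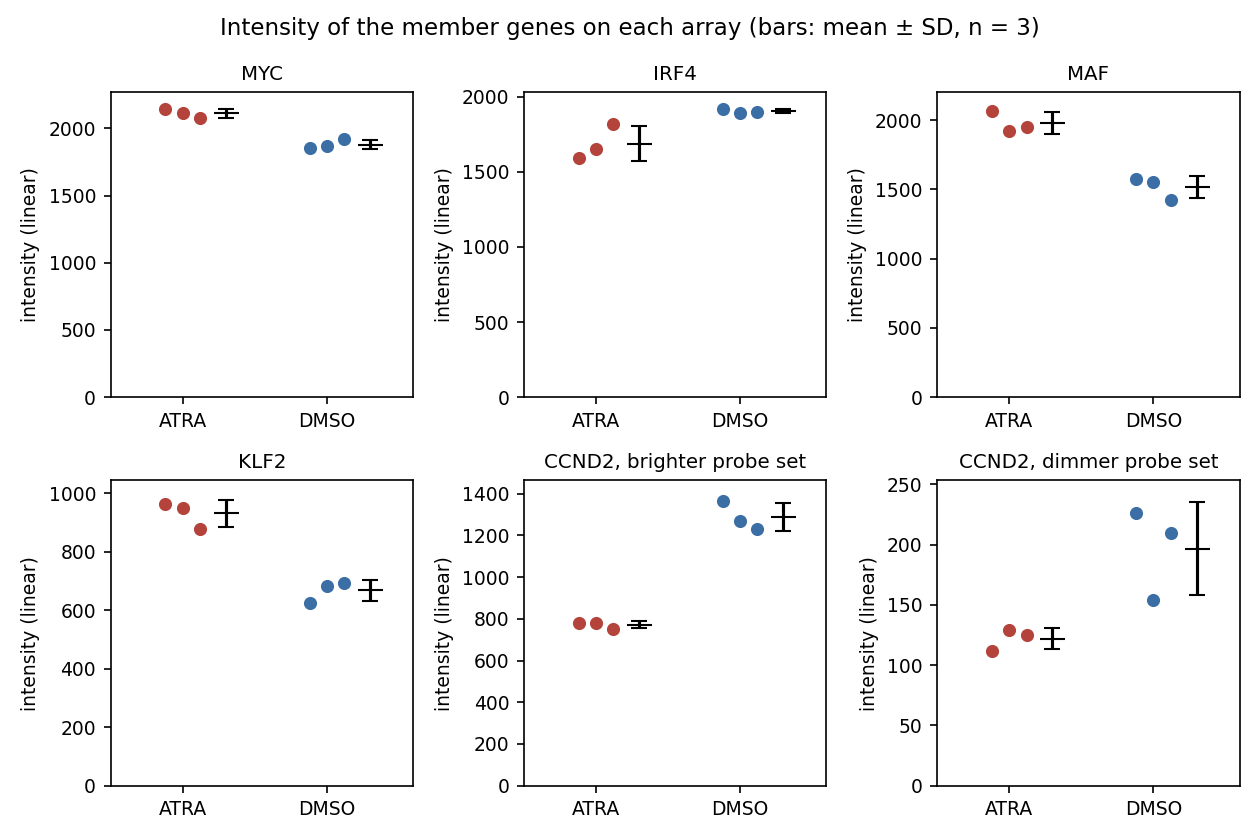
Linear intensity on each array (points) with the mean and SD of each group of 3, ATRA left and DMSO right, on axes that start at 0. CCND2 shows the widest separation for its size, 753 to 783 with ATRA against 1232 to 1364 with DMSO, and in IRF4 ATRA replicate 3 (1817) stands nearest to the DMSO arrays.

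The other D-type cyclins gave little signal. CCND1, the cyclin D1 gene, averaged 16.9 ± 2.25 with ATRA and 18.3 ± 2.15 with DMSO, and CCND3, the cyclin D3 gene, 12.9 ± 1.31 with ATRA and 14.3 ± 2.17 with DMSO (SD, n = 3 each). Both lay among the markers of other cell types, and their log2 differences of -0.12 and -0.14 did not pass (adjusted p = 0.730 and 0.662), so CCND2 was the D-type cyclin with a clear signal on these arrays.

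Other cyclins and kinases of the same step of the cell cycle were lower as well. Of 9 measured G1 cyclins and kinases, CCND2 included, 6 fell, 0 rose and 3 did not pass. The share called was 66.7%, against 3.8% of all genes, but the list is brighter (median log2 level 6.91 against 4.19). All 9 were lower in mean, with a list median of -0.73 against -0.01 for all genes. CCNE1, the cyclin of S phase entry, read 85.7, 77.9 and 84.8 with ATRA and 173, 182 and 167 with DMSO, a 2.10-fold decrease (adjusted p = 0.00164). CDK2, the kinase it activates, read 64.5, 61.3 and 72.8 with ATRA and 115, 119 and 115 with DMSO, a 1.77-fold decrease (adjusted p = 0.00654). CDC25A, the phosphatase that frees CDK2 from inhibition, fell by 0.86 on the log2 scale. CCNE2, the other cyclin E gene, was 1.66-fold lower (adjusted p = 0.0131), close to the 1.67-fold of CCND2. CDK4, one of the kinase partners of cyclin D2, averaged 563 ± 13.8 with ATRA and 782 ± 38.1 with DMSO (SD, n = 3 each), a log2 change of -0.47 (adjusted p = 0.0318). CDK6, its other partner, differed by -0.06 on the log2 scale and did not pass (adjusted p = 0.823). CDK4 lost its call with any 1 array left out (adjusted p 0.0857 to 0.116), and the list then kept 4 or 5 calls. CCND2, CCNE1, CDK2 and CDC25A kept theirs in all 6 of these fits. CCNE2 kept its call only without DMSO replicate 2 or ATRA replicate 2.

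**Figure D3:**
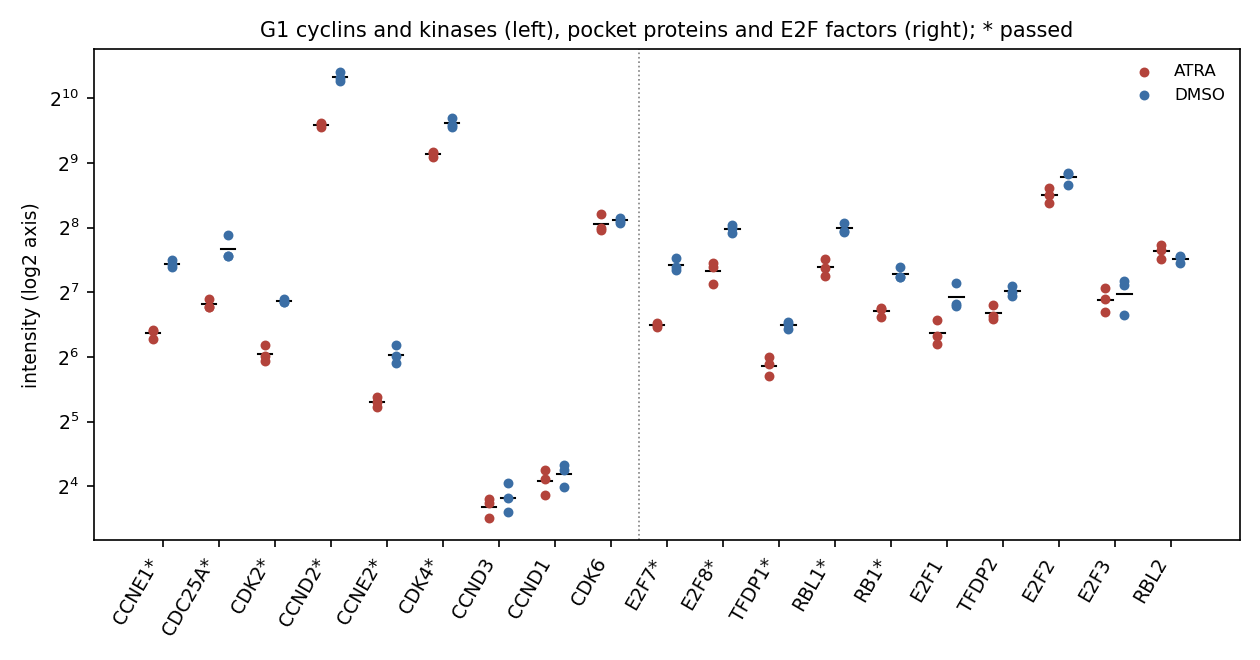
Intensity of each array (points, log2 axis) and group mean of the log2 values (lines) for the G1 cyclins and kinases and for the pocket proteins and E2F factors, ATRA left of DMSO for each gene. Asterisks mark an adjusted p under 0.05. All 9 genes on the left are lower in mean with ATRA, and on the right RBL2 is the 1 gene of 10 that is higher in mean.

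Pocket proteins are proteins that cyclin D kinases act on, and they hold back some of the E2F transcription factors. Among the 10 measured pocket proteins and E2F factors, 5 fell, 0 rose and 5 did not pass, with a median of -0.57. Here 50% were called, against 3.8% of all genes, but this list too is brighter (median log2 level 6.98 against 4.19). E2F7, an E2F repressor, averaged 90.1 ± 1.80 with ATRA and 172 ± 12.2 with DMSO (SD, n = 3 each), a change of -0.93 on the log2 scale. E2F8, its close relative, fell by 0.66, TFDP1, the partner subunit of E2F factors, by 0.63, and RBL1, the pocket protein p107, by 0.60. RB1, the retinoblastoma gene, fell by 0.58, while RBL2, the pocket protein p130, differed by 0.12 and did not pass. Each left-out array reduced these calls, to 1 without any of the DMSO replicates or ATRA replicate 1, to 2 without ATRA replicate 2 and to 3 without ATRA replicate 3. Of the G1 kinase inhibitors only CDKN2A was measured, at 13.7 ± 0.868 with ATRA and 16.6 ± 1.90 with DMSO, among the markers of other cell types, and CDKN1A and CDKN1B were not analysed here.

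MAF was higher in mean with ATRA but did not pass. It read 2067, 1923 and 1950 on the ATRA arrays, against 1573, 1551 and 1425 on the DMSO arrays. The groups were separated by 351, more than the range within either group. The means were 1980 ± 76.4 with ATRA and 1516 ± 80.0 with DMSO (SD, n = 3 each), and the log2 difference was 0.39 (SE 0.091, 95% confidence interval 0.17 to 0.60, adjusted p = 0.0698 in limma). This call depended on the settings, since MAF passed when the dimmer 25% or 50% of genes were left out and when the variance was modelled on the level (adjusted p = 0.0187 without the dimmer 50%).

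Of 12 genes described as MAF targets or as raised in myelomas that overexpress MAF, 7 were measured, of which 3 fell, 0 rose and 4 did not pass, CCND2 included. The list median was -0.34. Of the 7, 42.9% were called, against 3.8% of all genes, but the list is brighter (median log2 level 8.50 against 4.19). ARID5A, an RNA-binding protein, read 641, 609 and 597 with ATRA and 993, 1085 and 1009 with DMSO, a 1.67-fold decrease (adjusted p = 0.00654) of nearly the same size as that of CCND2. DEPTOR, an inhibitor of mTOR, at -0.34, CCR1, a chemokine receptor, at -0.17, CX3CR1, the fractalkine receptor, at 0.00, and TLR4, at 0.46, did not pass. Of 7 measured MAF relatives and partner factors, MAF included, 0 passed in limma's test, although 3 reached an unadjusted p under 0.05 and MAF alone passed with eBayes with trend and robust. The largest difference was that of NRL, a photoreceptor factor, at 0.59 on the log2 scale (adjusted p = 0.132), with 24.0 ± 5.31 on ATRA arrays and 15.8 ± 1.42 on DMSO arrays (SD, n = 3 each), which lay among the markers of other cell types. NRL passed without ATRA replicate 1 (0.78, adjusted p = 0.0435), the 1 call of these relatives in that fit. ITGB7, a MAF target, was not analysed here.

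The promoter of MAF is shown because it holds the core that MAF proteins themselves recognise. The 250 bases before its start, chr16:79600738-79600987 on the minus strand (GRCh38.p14, from RefSeq), hold 1 match to this core, TGCTGA, 17 to 22 bases before the start and on the opposite strand. It stands in capitals as its reverse complement.
MAF: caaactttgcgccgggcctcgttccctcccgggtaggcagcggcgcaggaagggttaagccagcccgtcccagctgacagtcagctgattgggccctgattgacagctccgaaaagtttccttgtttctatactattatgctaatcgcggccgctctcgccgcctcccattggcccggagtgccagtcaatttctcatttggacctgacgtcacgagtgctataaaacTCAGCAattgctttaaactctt
The core was searched on both strands of 300-base windows, 250 before and 50 after each start, and 17.4% of 27305 such windows hold it, so a match is common. The retinoic acid receptor hexamers AGGTCA (in 13.9% of windows) and AGTTCA (10.5%), and the E-box CACGTG bound by MYC and MAX (7.43%), had 0 matches in the windows of MAF, KLF2 and IRF4. The promoters of MYC and CCND2 were not searched. Matches say only which letters are present.

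KLF2 rose with ATRA. It read 964, 952 and 880 on the ATRA arrays, against 627, 683 and 695 on the DMSO arrays. The groups were 185 apart. The means were 932 ± 45.5 with ATRA and 668 ± 36.6 with DMSO (SD, n = 3 each), a 1.39-fold increase, or 0.48 on the log2 scale (SE 0.093, 95% confidence interval 0.26 to 0.70, adjusted p = 0.0381). The call was close to the threshold and was lost with any 1 array left out, with adjusted p between 0.0719 (without ATRA replicate 3) and 0.126 (without DMSO replicate 1). It was also lost with the arrays shifted to a common median (adjusted p = 0.0530).

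All 17 KLF genes were measured, of which 3 rose, 2 fell and 12 did not pass. The share called was 29.4%, against 3.8% of all genes, but the list is brighter (median log2 level 5.79 against 4.19). It also counts KLF2 itself, without which 2 of 16 rose, 2 fell and 12 did not pass. KLF11, a repressor first described as induced by TGF-beta, changed most among those that passed, with 42.3, 52.2 and 39.8 on the ATRA arrays and 110, 109 and 101 on the DMSO arrays, a 2.39-fold decrease (adjusted p = 0.00269). KLF6 fell by 0.47 on the log2 scale. KLF7 rose 1.44-fold, to a mean of 120 ± 6.82 with ATRA against 83.6 ± 8.12 with DMSO. KLF15 rose 1.58-fold to 26.3 ± 1.07 on ATRA arrays against 16.7 ± 1.63 on DMSO arrays (SD, n = 3 each), both among the markers of other cell types, which leaves its fold uncertain. KLF12, at 0.68, missed the threshold (adjusted p = 0.0502) and was named after its value was seen. The KLF calls were reduced to 1 or 2 with any 1 array left out.

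Among 12 measured regulators and targets of KLF2, 0 passed in limma's test, although 3 reached an unadjusted p under 0.05 and 2, MAPK7 and MEF2D, passed with eBayes with trend and robust. The median was -0.13. MAPK7, the kinase ERK5 upstream of KLF2, averaged 28.7 ± 8.50 with ATRA and 51.3 ± 6.17 with DMSO (SD, n = 3 each; log2 difference -0.87, adjusted p = 0.0762). It passed without ATRA replicate 2 (adjusted p = 0.0328). MEF2D, one of the MEF2 factors that activate KLF2, averaged 1487 ± 20.3 with ATRA and 1190 ± 32.8 with DMSO (log2 difference 0.32, adjusted p = 0.0917). KDM3A, the demethylase of the KLF2 and IRF4 loop, averaged 122 ± 4.12 on ATRA arrays and 124 ± 4.11 on DMSO arrays (log2 difference -0.03, 95% confidence interval -0.23 to 0.17).

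IRF4 was lower in mean with ATRA and did not pass. It read 1591, 1653 and 1817 on the ATRA arrays, against 1916, 1891 and 1896 on the DMSO arrays. The groups did not overlap, but ATRA replicate 3 lay only 74.2 below the lowest DMSO array, and the SD was 117 with ATRA and 13.4 with DMSO. The means were 1687 with ATRA and 1901 with DMSO, and the log2 difference was -0.17 (SE 0.091, 95% confidence interval -0.39 to 0.04, adjusted p = 0.383), and the interval reaches from a 1.31-fold decrease to a small increase. Without ATRA replicate 3 the log2 difference was -0.23, and without ATRA replicate 1 it was -0.13, with adjusted p of 0.317 and 0.595.

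The promoters of KLF2 and IRF4 are set together because KLF2 is known to act on IRF4 in myeloma, and the KLF box CACCC was searched on both strands. The 250 bases before the KLF2 start are chr19:16324576-16324825 on the plus strand and those before the IRF4 start chr6:391502-391751 on the plus strand (GRCh38.p14, from RefSeq). Capitals mark the box.
KLF2: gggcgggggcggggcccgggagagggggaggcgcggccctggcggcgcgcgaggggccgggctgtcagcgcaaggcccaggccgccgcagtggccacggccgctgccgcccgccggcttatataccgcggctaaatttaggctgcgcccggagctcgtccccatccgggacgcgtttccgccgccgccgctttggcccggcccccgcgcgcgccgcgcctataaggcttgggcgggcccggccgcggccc
IRF4: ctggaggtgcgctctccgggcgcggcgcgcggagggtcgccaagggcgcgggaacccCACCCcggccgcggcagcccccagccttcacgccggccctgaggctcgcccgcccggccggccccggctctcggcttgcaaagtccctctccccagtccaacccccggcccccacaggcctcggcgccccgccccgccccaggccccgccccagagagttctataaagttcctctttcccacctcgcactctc
The IRF4 window holds 1 box, 189 to 193 bases before the start, and the KLF2 window 0, where 58.9% of all windows hold at least 1. Both stretches are rich in G and C, at 80.0% for KLF2 and 76.0% for IRF4, against 54.4% for MAF and a median of 58.0% for all promoters. The IRF core of GAAA repeats had 0 matches in the 3 windows and stands in 3.65% of all.

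Of the 8 measured genes of the IRF family, IRF1 rose and 7 did not pass, IRF4 among them. That is 12.5% called, against 3.8% of all genes, at a median log2 level of 7.17 against 4.19. IRF1, an activator of interferon responses, read 434, 415 and 412 with ATRA and 172, 173 and 181 with DMSO, a 2.40-fold increase. Among 14 measured partners and regulators of IRF4, 1 rose, 1 fell and 12 did not pass, with a median of -0.06. Their share called was 14.3%, and they are brighter than all genes as well (median log2 level 7.69). XBP1, the plasma cell transcription factor of the secretory programme, rose 1.46-fold, to 1731 ± 42.3 with ATRA against 1189 ± 39.6 with DMSO. NFKB1, a subunit of NF-kappaB, which is known to activate IRF4, fell 1.36-fold, to 198 ± 1.11 with ATRA against 268 ± 13.5 with DMSO (SD, n = 3 each). Both calls were lost with any 1 array left out, and that of NFKB1 also with quantile or cyclic loess normalization. IKZF1, the factor Ikaros that maintains IRF4 in myeloma, averaged 192 ± 17.2 with ATRA and 177 ± 3.34 with DMSO and did not pass (adjusted p = 0.612). IKZF3, its relative Aiolos, read 18.2 ± 3.59 with ATRA and 20.6 ± 2.32 with DMSO, among the markers of other cell types. PRDM1 was not analysed here.

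MYC was slightly higher in mean with ATRA and did not pass. It read 2146, 2118 and 2077 on the ATRA arrays, against 1853, 1868 and 1920 on the DMSO arrays. The groups were 157 apart, more than the range within either, and the SDs on the log2 scale were 0.024 with ATRA and 0.027 with DMSO. The log2 difference was 0.17 (SE 0.083, 95% confidence interval -0.02 to 0.36, adjusted p = 0.350). The SE draws on the spread of all genes, and MYC passed where that spread was modelled on the level with robust estimation (adjusted p = 0.00501), as did IRF4 (adjusted p = 0.0307).

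The proteins that pair or compete with MYC gave 0 of 11 calls in limma's test and 0 with eBayes with trend and robust, with 1 unadjusted p under 0.05 (MXD1) and a median of -0.01. MAX, the obligate partner of MYC, averaged 31.9 ± 0.893 with ATRA and 33.4 ± 2.48 with DMSO (SD, n = 3 each), within the range of the markers of other cell types. MXD1, which competes with MYC for MAX, averaged 144 ± 2.16 with ATRA and 122 ± 7.52 with DMSO (log2 difference 0.24, adjusted p = 0.221). MXI1, another such competitor, differed by -0.23 in its brighter probe set and by -0.01 in its other. Of 6 measured genes of MYC turnover and stability 0 passed in limma's test and 3 had an unadjusted p under 0.05. The largest differences, both past the threshold with eBayes with trend and robust, were -0.32 for CIP2A, which shields MYC from dephosphorylation (adjusted p = 0.169), and -0.29 for GSK3B, a kinase that marks MYC for degradation (adjusted p = 0.168).

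Genes known to be induced by MYC were mostly lower in mean. Of 27 measured genes of this list of 48, 3 fell, 0 rose and 24 did not pass. The share called was 11.1%, against 3.8% of all genes, but the list is brighter (median log2 level 8.31 against 4.19). In mean, 23 were lower and 4 higher. Of the 27, 13 had no overlap with ATRA lower, where 14.8% of all genes did. With ATRA higher, 2 had no overlap, where 9.86% of all genes did. These shares over all genes are not those of genes as bright as this list. With the dimmer 50% of genes left out, 707 genes passed lower and 436 higher. The median of the list was -0.15. ODC1, the first enzyme of polyamine synthesis, read 3672, 3814 and 3678 with ATRA and 5011, 5157 and 5156 with DMSO, a 1.37-fold decrease. LDHA, lactate dehydrogenase A, fell 1.47-fold, to 81.8 ± 8.04 with ATRA against 120 ± 8.57 with DMSO (SD, n = 3 each). CDK4, described above, also stands in this list. Leaving out any 1 array took these calls to 0, except that 1 held without ATRA replicate 2. Of the list's genes that did not pass in limma's test, HSPD1 (0.39, adjusted p = 0.0511) and MRTO4 (-0.42, adjusted p = 0.0609) came nearest. Both were named after their values were seen. Of the genes that MYC represses, NDRG1 (-0.23) and NDRG2 (-0.26) were measured and did not pass, and NDRG2 lay among the markers of other cell types.

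**Figure D4:**
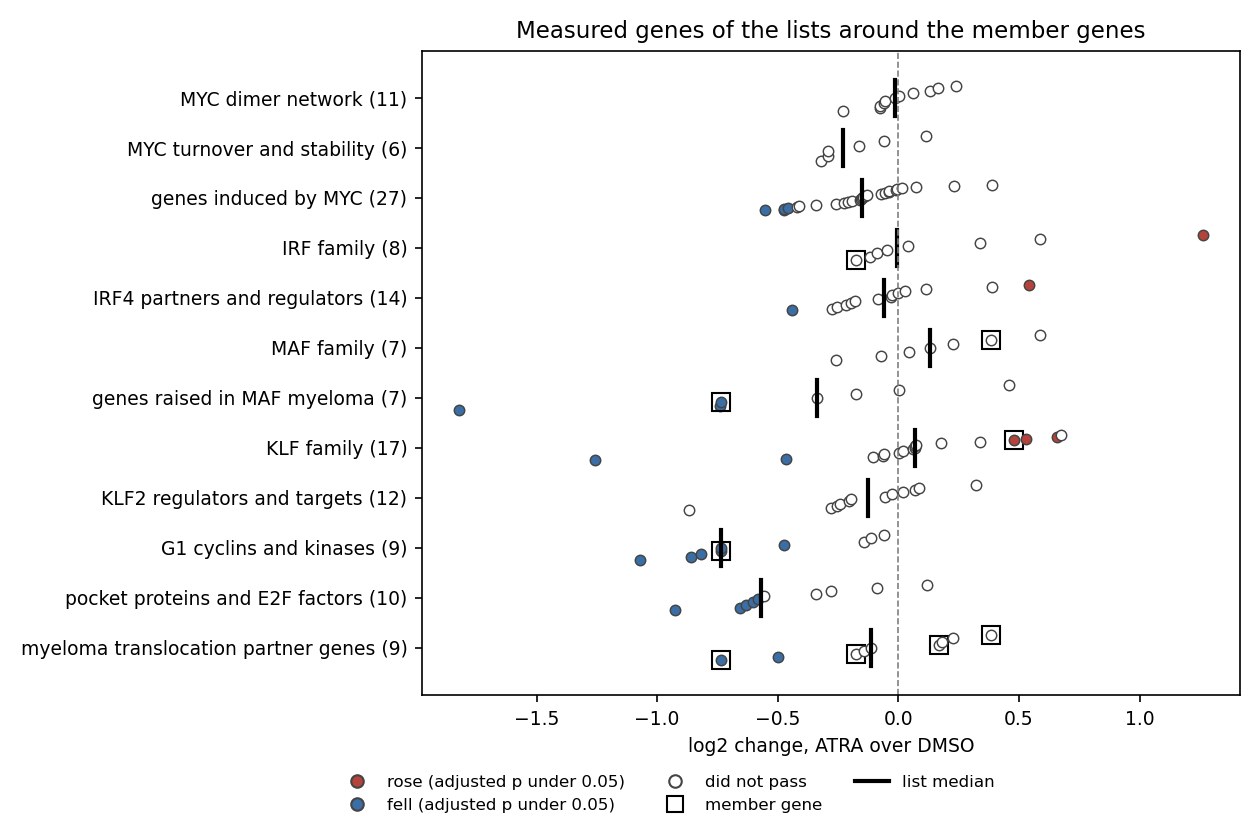
Log2 change, ATRA over DMSO, of each measured gene (points) in the lists with at least 6 measured genes, whose number stands in brackets. Filled points passed an adjusted p of 0.05, squares mark MYC, IRF4, MAF, KLF2 and CCND2, and bars are list medians. The G1 cyclins and kinases (median -0.73) and the pocket proteins and E2F factors (-0.57) lie to the left.

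Some genes are brought under immunoglobulin enhancers by translocations or are otherwise overexpressed in myeloma. Of 9 such genes measured, CCND2 and NSD2 fell, 0 rose and 7 did not pass. The share called was 22.2%, against 3.8% of all genes, but the list is brighter (median log2 level 6.72 against 4.19). NSD2, a histone methyltransferase, averaged 88.6 ± 4.68 with ATRA and 125 ± 6.78 with DMSO, a log2 change of -0.50 (adjusted p = 0.0332) that was lost with any 1 array left out.

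The genes whose 6 values ran most like those of each member, by the smallest root mean square difference of centred log2 values among 6788 brighter protein-coding genes, were found next. For CCND2 they were HSPB1, a small heat shock protein (0.046), and DUSP1, a phosphatase of MAP kinases (0.050), whose log2 changes were -0.67 and -0.78. For KLF2 they were RBM38, an RNA-binding protein (0.038), and NAGPA, an enzyme of lysosomal enzyme targeting (0.039), and for MAF PNRC1, a nuclear receptor coactivator (0.043), and TMEM63B, an ion channel (0.046). For MYC they were COQ9 (0.019), of coenzyme Q synthesis, and the general transcription factor gene GTF2B (0.021), and for IRF4 DCAF6 (0.015) and the nucleoporin gene NUP98 (0.019). Genes that differ as little as MYC and IRF4 are many, so the likeness there says little.

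The nearest measured genes, up to 2 on each side of each member, were looked at after the members' values were seen. Among them CENPN fell by 0.60 on the log2 scale (adjusted p = 0.0131), and the others did not pass. Since 3.8% of all genes passed, a lone call among these neighbours says little about the members. CENPN, a centromere protein gene, lies beyond CMC2 with 15 annotated genes between it and MAF. CMC2 itself differed by -0.09. WWOX, on the other side of MAF with 8 annotated genes between them, differed by 0.09. Its log2 level of 3.80 lay among the markers of other cell types. Directly beside IRF4, DUSP22 differed by 0.04 and EXOC2 by -0.19 on the log2 scale. EPS15L1, next to KLF2, differed by -0.17, and TIGAR, next to CCND2, by -0.17.

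**Figure D5:**
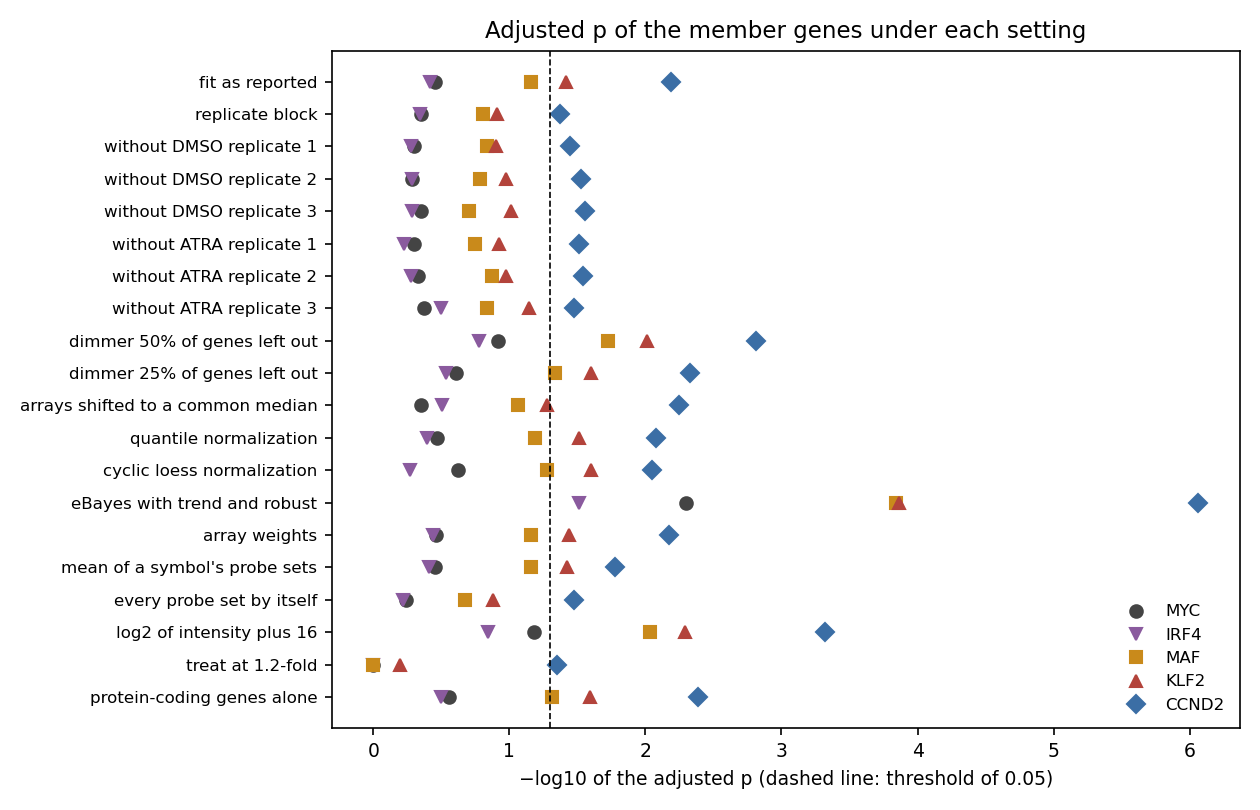
Adjusted p of each gene, as −log10, under the fit as reported and each other setting, with the threshold of 0.05 as a dashed line. CCND2 lies to the right of the line in every fit shown. Of the 19 other settings, KLF2 lies to the right of the line in 9 and MAF in 5, while MYC and IRF4 do so in 1, eBayes with trend and robust.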

How the data were processed

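Total RNA of 6 MM.1S samples was labelled for whole transcripts, per the labels, which also gave groups and replicate numbers. The authors deposited linear intensities for 53617 probe sets, all above 0. RMA and limma stand in the submitters' processing notes without version or role, and no genome build was named there. Values were turned to log2 without an offset. Of the probe sets 16098 (30.0%) had exactly 1 symbol in the platform annotation, 0 had several and 37519 had none. Entrez IDs matched all 16098 to a RefSeq gene table (GRCh38.p14), used for names, gene types and neighbours.

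Differences were fitted with limma 3.58.1 in R 4.3.3 (lmFit, eBayes, two-sided, no block, no filter) over 14884 genes with Benjamini-Hochberg adjustment at 0.05, and over all probe sets for the dimmer CCND2 probe set. The steps were tested on simulated data, in which 13.4% of genes given a log2 change of 0.5 passed, 70.1% at 1 and 92.4% at 2. A gene that did not pass may thus still have changed, by a small amount or by a larger one. Whether the shares of 13.4%, 70.1% and 92.4% hold for genes as bright as the members was not tested. No 2 arrays were identical.

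The members and the 14 lists were chosen with earlier results of these data known. Lists are described by counts and medians. Named genes are the members, up to 4 called list members with the largest change (with 0 called, the 2 largest differences), a fixed set of regulators and the 2 genes most like each member. A few others, such as KLF6, CCNE2, CDK6, RB1, RBL2, DEPTOR, CCR1, CX3CR1 and TLR4, were named after their values were seen. In the MAF list 1 called gene is not reported here. Alternatives were the replicate block, each array left out, filters on dim genes, 3 normalizations, other variance, weight and probe set settings, an offset and limma's treat, and, added after seeing the data, protein-coding genes alone.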

Additional observations from a re-analysis of the deposited data

How the results depend on the processing

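The 5 genes kept their direction under all 19 alternatives, and CCND2 passed in all of them (log2 change -0.77 to -0.69, adjusted p up to 0.0443). KLF2 did not pass with the replicate block (0.48, adjusted p = 0.123), with arrays shifted to a common median (0.45, 0.0530), with every probe set by itself (0.48, 0.133), with treat at 1.2-fold (0.48, 0.635), or with 1 array left out (0.43 to 0.52, adjusted p 0.0719 to 0.126). MAF passed without the dimmer 50% (0.39, adjusted p = 0.0187) or 25% of genes (0.39, 0.0458), with eBayes with trend and robust (0.39, 0.000144), with log2 of intensity plus 16 (0.38, 0.00923) and among protein-coding genes alone (0.39, 0.0484). With trend and robust, MYC (0.17, 0.00501) and IRF4 (-0.17, 0.0307) passed too. The dimmer CCND2 probe set passed in 0 of its 16 alternatives, with adjusted p from 0.0576 with trend and robust upward. The 565 genes past the threshold became 200 with the replicate block, 207 to 317 with 1 array left out, 1143 without the dimmer 50% of genes, 1327 with trend and robust, 197 with every probe set by itself, 1218 with the offset of 16 and 169 with treat. Each of the 6 left-out arrays lowered the count, where a fit has fewer samples. Other causes were not tested.

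The replicate numbers are not known to pair the samples. Deviations of same-numbered arrays from their group means correlated at 0.017, 0.0087 and 0.016 across genes. By this measure each ATRA array was closest to the DMSO array of its own number, but correlations this small cannot tell whether samples were paired. With the replicate block 0 of the 27 genes induced by MYC, 1 KLF gene and 1 of the pocket protein and E2F list passed. KDM3A turned to 0.015 with cyclic loess normalization. Of 851 results for the other named genes, 131 lost a call, 14 gained 1 and 1 changed direction. Signal over background limits CCND1, CCND3, CDKN2A, IKZF3, KLF15, MAX, NDRG2, NRL and WWOX, which lay among the markers of other cell types, and MAPK7, just above them.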
